A study of Mus musculus with 36 samples.

Results

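Naive pluripotency is the state of the early, preimplantation epiblast, and mouse embryonic stem cells (ESCs) hold it in culture through a network of transcription factors that is shut down when the cells differentiate. The genes of 9 such factors are described here: Klf2, Klf4 and Klf5, Esrrb, Nr0b1, Tbx3, Tfcp2l1, Prdm14 and Zfp42. They were chosen as a group by function, not by a measured value, out of 22367 protein-coding genes, but with earlier results of these data known. Every peak whose midpoint lay within 50 kb of one of the gene bodies was counted. The 9 windows covered 1.18 Mb, or 0.0463% of the genome, and each window held from 0 to 36 separate bound loci.

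ChIP-seq, which sequences the DNA that a protein is bound to, gave 9 peak lists. MBD3 and CHD4 were precipitated from wild-type R1 ESCs grown in serum with LIF and 2i, 2 lists each, and from neural progenitor cells (NPCs) derived from R1 ESCs and kept in NPC medium, 1 list each. SIN3A was profiled in wild-type R1 ESCs of the same culture, in 1 preparation without and 1 with a spike-in. A GFP antibody was used for ZFP296 fused to GFP, in an ESC line of that culture. The tagged line is labelled as carrying a ZFP296 BAC in R1 cells, whereas the methods speak of KH2 ESCs with a GFP fusion, and this protein has 1 list. All peak names of ESC CHD4 replicate 2 mention a Zfp219 BAC although its labels give wild-type cells, so peak counts are given list by list. Every result on ESC CHD4 sites, which must be found in both replicates, still depends on that list. No RNA was measured here, so the identity of the NPCs was not checked against their marker transcripts.

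NuRD is a complex that remodels nucleosomes and removes acetyl groups from histones, with CHD4 as its ATPase and MBD3 as a scaffold subunit, which makes a locus bound by both a candidate NuRD site. SIN3A is the scaffold of another histone deacetylase complex, and ZFP296 is a zinc finger protein of ESCs. LIF acts through STAT3, and the 2i inhibitors block MEK and GSK3. Klf4 and Tfcp2l1 are known targets of the first route, and Esrrb of the GSK3 route.

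In ESCs, 8 of the 9 genes had at least 1 peak of MBD3, of CHD4 and of SIN3A in every list of these factors, and 7 had a GFP-ZFP296 peak. In NPCs, none of the 9 had an MBD3 peak and 2, Klf4 and Klf5, had a CHD4 peak. Nr0b1 was the exception in ESCs, with 0 peaks in all lists. Peak numbers by gene ran from single peaks to the 25 CHD4 peaks of Tbx3.

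**Figure D1:**
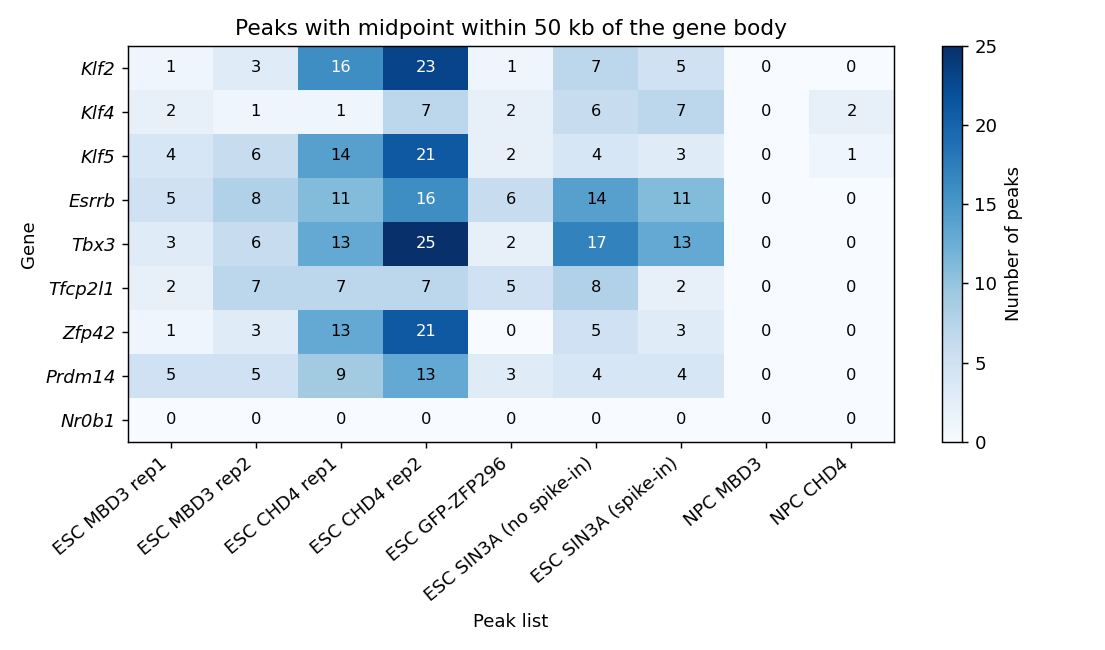
Number of peaks with their midpoint within 50 kb of each gene body (rows, 9 genes) in each peak list (columns, 7 ESC and 2 NPC lists), with darker blue for more peaks. The ESC CHD4 columns hold up to 25 peaks, the NPC MBD3 column holds 0 throughout, and the NPC CHD4 column holds 3 peaks in all.

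The sequences under the leading loci are given first, since each is the stretch of DNA on which the named peaks lie. For every gene the leading locus is the one found in the most lists, after peaks of all 9 lists were merged where they overlapped by at least 1 bp. For 5 genes the central 200 bp of 1 peak of that locus are printed: the GFP-ZFP296 peak or, for Zfp42, which has none, the CHD4 replicate 1 peak. A sixth locus, that of Tfcp2l1, was chosen because it held the strongest GFP-ZFP296 peak of that gene, on which its stretch is centred. Coordinates are on mm9 and capitals mark a matched string: the POU5F1 octamer ATGCAAAT, the SOX2 string CCATTGT or the KLF string GGGNGTGG, on either strand.
Klf2, chr8:74858225-74858424, plus strand: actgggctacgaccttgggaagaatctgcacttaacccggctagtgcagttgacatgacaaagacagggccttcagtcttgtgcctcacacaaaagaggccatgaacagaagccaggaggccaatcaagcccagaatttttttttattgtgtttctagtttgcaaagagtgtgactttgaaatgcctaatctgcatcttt
Klf4, chr4:55490471-55490670, plus strand: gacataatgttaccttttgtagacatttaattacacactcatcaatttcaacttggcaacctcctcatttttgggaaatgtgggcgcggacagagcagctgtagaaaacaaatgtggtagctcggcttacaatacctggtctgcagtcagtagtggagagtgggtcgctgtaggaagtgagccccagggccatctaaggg
Esrrb, chr12:87842766-87842965, plus strand: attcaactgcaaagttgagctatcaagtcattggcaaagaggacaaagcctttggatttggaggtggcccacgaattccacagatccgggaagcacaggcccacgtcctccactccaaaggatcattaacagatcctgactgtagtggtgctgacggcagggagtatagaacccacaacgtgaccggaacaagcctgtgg
Tfcp2l1, chr1:120522067-120522266, plus strand: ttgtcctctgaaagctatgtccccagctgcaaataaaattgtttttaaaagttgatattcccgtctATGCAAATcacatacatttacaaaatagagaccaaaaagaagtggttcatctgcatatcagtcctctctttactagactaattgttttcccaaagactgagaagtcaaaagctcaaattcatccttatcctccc
Zfp42, chr8:44406215-44406414, plus strand: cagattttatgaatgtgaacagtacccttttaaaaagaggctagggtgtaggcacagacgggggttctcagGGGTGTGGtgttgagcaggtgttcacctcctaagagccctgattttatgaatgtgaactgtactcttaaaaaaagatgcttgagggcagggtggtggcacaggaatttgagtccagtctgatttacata
Prdm14, chr1:13075036-13075235, plus strand: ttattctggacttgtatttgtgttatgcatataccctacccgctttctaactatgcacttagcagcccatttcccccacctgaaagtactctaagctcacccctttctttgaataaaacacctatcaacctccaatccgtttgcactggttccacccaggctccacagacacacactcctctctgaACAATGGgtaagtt
The Zfp42 stretch held the KLF string, that of Tfcp2l1 the octamer and that of Prdm14 the reverse complement of the SOX2 string. The stretches of Klf2, Klf4 and Esrrb held none of the 10 strings searched, which says nothing about the factors that bind there. Centred on the MBD3 site instead, the same Klf4 locus held the KLF string and the same Esrrb locus the ESRRB and KLF strings. The central 200 bp of further loci were searched but are not printed. Those of the leading Klf5 and Tfcp2l1 loci and of the strongest GFP-ZFP296 peaks of Klf5, Tbx3 and Prdm14 held none. Those of the leading Tbx3 locus and of the Klf4 locus with SIN3A and an NPC CHD4 peak held the KLF string.

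The 3 KLF genes encode Krüppel-like zinc finger factors that can replace one another in ESC self-renewal. Klf2 (chr8:74842932-74845555, plus strand) had 1 and 3 MBD3 peaks, 16 and 23 CHD4 peaks, 1 GFP-ZFP296 peak and 7 and 5 SIN3A peaks in the ESC lists, and 0 in both NPC lists. Klf2 thus ranked higher among genes by CHD4 than by MBD3. Of all genes, 0.398% had as many CHD4 peaks as Klf2 in replicate 1 and 0.572% in replicate 2, against 15.8% and 7.84% with as many MBD3 peaks. Of its 14 CHD4 sites found in both replicates, 1 carried an MBD3 site, beside 15.7% of all ESC CHD4 sites. That one, chr8:74857791-74858646, lay 15.3 kb downstream of the start in intergenic sequence and was found in all 7 ESC lists. The first sequence above is the part of it under the GFP-ZFP296 peak. The window of Klf2 also holds Eps15l1 and Gm10282, and Klf2 was the nearest start for 11 of the 25 loci in it.

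Klf4, a reprogramming factor as well as a KLF member (chr4:55540013-55545347, minus strand), had the fewest CHD4 sites of the 8 bound genes. It had 2 and 1 MBD3 peaks, 1 and 7 CHD4 peaks, 2 GFP-ZFP296 peaks and 6 and 7 SIN3A peaks in ESCs, with 0 MBD3 and 2 CHD4 peaks in NPCs. Its ESC CHD4 replicates therefore lay on either side of the NPC value. The single locus with MBD3, CHD4, GFP-ZFP296 and SIN3A, chr4:55490255-55490866, lay 54.8 kb downstream of the start, just inside the edge of the window, and was found in all 7 ESC lists. Beyond the edge, peaks of all 7 ESC lists clustered again at 56.9 kb and at about 68.0 kb. With a window of 100 kb the CHD4 counts of Klf4 were 5 and 11 in ESCs and 2 in NPCs. One of the NPC CHD4 peaks, with a value of 15.5 on the authors' −log10 scale, lay 1.9 kb downstream of the Klf4 start on a locus that carried SIN3A in both ESC lists and no ESC CHD4 peak. The other lay upstream of the gene on a locus of that list alone.

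Klf5 (chr14:99697910-99712624, plus strand) was among the genes densest in MBD3. It had 4 and 6 MBD3 peaks, 14 and 21 CHD4 peaks, 2 GFP-ZFP296 peaks and 4 and 3 SIN3A peaks in ESCs, and 0 MBD3 and 1 CHD4 peak in NPCs. Of all genes, 0.756% had as many MBD3 peaks in replicate 1. All 4 of its MBD3 sites lay between 41.1 and 56.9 kb downstream of the start, beyond the end of the gene, and each overlapped a CHD4 site. None of the 4 overlapped a GFP-ZFP296 peak or a SIN3A site. The leading locus, chr14:99738809-99739939, held both of the strongest MBD3 sites under a single CHD4 site. The NPC CHD4 peak of Klf5, with a value of 8.26, fell on chr14:99723822-99724338, where GFP-ZFP296, MBD3 replicate 2 and CHD4 replicate 2 also had a peak, while replicate 1 of both proteins had none. Pibf1 shares the window.

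At Klf5 the octamer bound by POU5F1, the core pluripotency factor OCT4, stood in 3 of the 4 MBD3 sites. These are shown because together with 1 site of Tfcp2l1 they make up all 4 octamer-bearing MBD3 sites of the 9 genes; they were picked out after their values were seen. Each line gives the octamer in capitals with 30 bases on either side, on mm9.
Klf5, chr14:99739449-99739516, plus strand: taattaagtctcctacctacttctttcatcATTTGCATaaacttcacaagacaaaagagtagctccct
Klf5, chr14:99752480-99752547, plus strand: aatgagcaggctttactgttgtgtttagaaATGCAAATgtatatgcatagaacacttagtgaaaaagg
Klf5, chr14:99754721-99754788, plus strand: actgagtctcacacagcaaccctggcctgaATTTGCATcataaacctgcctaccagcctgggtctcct
The octamer is on the plus strand in the middle sequence and on the minus strand in the others. Over all 9 genes, 4 of 18 MBD3 sites (22.2%, 95% exact interval 6.41 to 47.6) held the octamer in the central 200 bp, against 5.71% of the 1507 ESC MBD3 sites of the genome. With 3 of the 4 at Klf5, the share rests on that gene. Among CHD4 sites the octamer stood in 3 of 62 (4.84%, 1.01 to 13.5; 2.88% of all CHD4 sites).

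Esrrb and Nr0b1 encode orphan nuclear receptors, the first an activator of the naive network and the second a protein without the usual DNA-binding domain that acts as a corepressor. Esrrb (chr12:87702067-87862578, plus strand) had 5 and 8 MBD3 peaks, 11 and 16 CHD4 peaks, 6 GFP-ZFP296 peaks and 14 and 11 SIN3A peaks in ESCs and 0 in both NPC lists. All 4 proteins had many peaks there, but its window of 260.5 kb is the longest of the 9, and per 100 kb it had 4.22 and 6.14 CHD4 peaks, against 15.6 and 22.4 at Klf2. Of all genes, 0.295% had as many MBD3 peaks in replicate 1, 0.232% had as many GFP-ZFP296 peaks and 0.232% had as many SIN3A peaks with spike-in, without regard to window length. All 4 of its MBD3 sites fell between 103.5 and 143.4 kb from the outermost start, 3 in introns and 1 in the window of an internal start. Of its 7 CHD4 sites, 6 carried a GFP-ZFP296 peak and 5 a SIN3A site. The intronic locus chr12:87842320-87843304 was found in all 7 ESC lists, and its GFP-ZFP296 value of 38.2 was the highest of the 21 peaks of that list in the windows.

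Nr0b1 (chrX:83437103-83441286, plus strand) had 0 peaks in all 9 lists, and 0 within 100 kb as well. Genes of its chromosome were often without peaks: 60.5% of 932 genes on chromosome X had 0 in all lists, against 17.1% of 21418 autosomal genes. In ESC CHD4 replicate 1, 6.12% of the X genes and 44.7% of the autosomal genes had a peak. What part this had in the result for Nr0b1 was not tested.

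Tbx3 and Tfcp2l1 encode a T-box factor and a factor of the CP2 family. Tbx3 (chr5:120120678-120134733, plus strand) had 3 and 6 MBD3 peaks, 13 and 25 CHD4 peaks, 2 GFP-ZFP296 peaks and 17 and 13 SIN3A peaks in ESCs and 0 in both NPC lists. Its 13 SIN3A peaks with spike-in were matched or exceeded by 0.0626% of genes. SIN3A and CHD4 were spread differently there: the SIN3A peaks clustered over the start and the gene body, while CHD4 sites stretched from −13.6 kb to 50.2 kb of the start. Of 12 CHD4 sites 1 carried an MBD3 site, at chr5:120107365-120107777, at −13.1 kb. GFP-ZFP296 was strongest at chr5:120159723-120160510, 39.4 kb downstream, with a value of 13.5.

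Tfcp2l1 (chr1:120524522-120581744, plus strand; named Tcfcp2l1 in the annotation) had 2 and 7 MBD3 peaks, 7 and 7 CHD4 peaks, 5 GFP-ZFP296 peaks and 8 and 2 SIN3A peaks in ESCs and 0 in both NPC lists. GFP-ZFP296 stood out more than CHD4 at this gene, since 0.465% of genes had as many GFP-ZFP296 peaks and 4.64% and 17.2% as many CHD4 peaks in replicates 1 and 2. Both MBD3 sites carried CHD4 and GFP-ZFP296. The locus at −2.4 kb, upstream of the start, chr1:120521954-120522343, had the highest MBD3 replicate 1 value of all 9 windows, 31.3, and a GFP-ZFP296 value of 19.1. It is the octamer-bearing sequence printed above. The other, chr1:120544559-120545245, lay in an intron and was found in all 7 ESC lists. Clasp1 shares the window.

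Zfp42 and Prdm14 encode the zinc finger protein REX1, a marker of the naive state, and a PR-domain protein that keeps FGF signalling and DNA methylation low in ESCs. Zfp42 (chr8:44380422-44392363, minus strand) had 1 and 3 MBD3 peaks, 13 and 21 CHD4 peaks, 0 GFP-ZFP296 peaks and 5 and 3 SIN3A peaks in ESCs and 0 in both NPC lists. It was the bound gene without GFP-ZFP296. All 10 of its CHD4 sites lay at or upstream of the start, out to −46.9 kb, and 1 of them carried MBD3. That locus, chr8:44405821-44406743, at −13.9 kb, ranked high in each of the 6 lists that held it, with a mean percentile of 95.4.

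Prdm14 (chr1:13103538-13117244, minus strand) had 5 and 5 MBD3 peaks, 9 and 13 CHD4 peaks, 3 GFP-ZFP296 peaks and 4 and 4 SIN3A peaks in ESCs and 0 in both NPC lists. Its 4 MBD3 sites were all intergenic, from 23.0 to 52.6 kb downstream of the start and so beyond the end of the gene. The leading one, chr1:13074621-13075759, had MBD3 replicate 1 at 22.6 and was found in all 7 ESC lists. A GFP-ZFP296 peak with a value of 19.1 lay just upstream of the start, at −0.9 kb, on chr1:13117975-13118394. Ncoa2 shares the window.

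**Figure D2:**
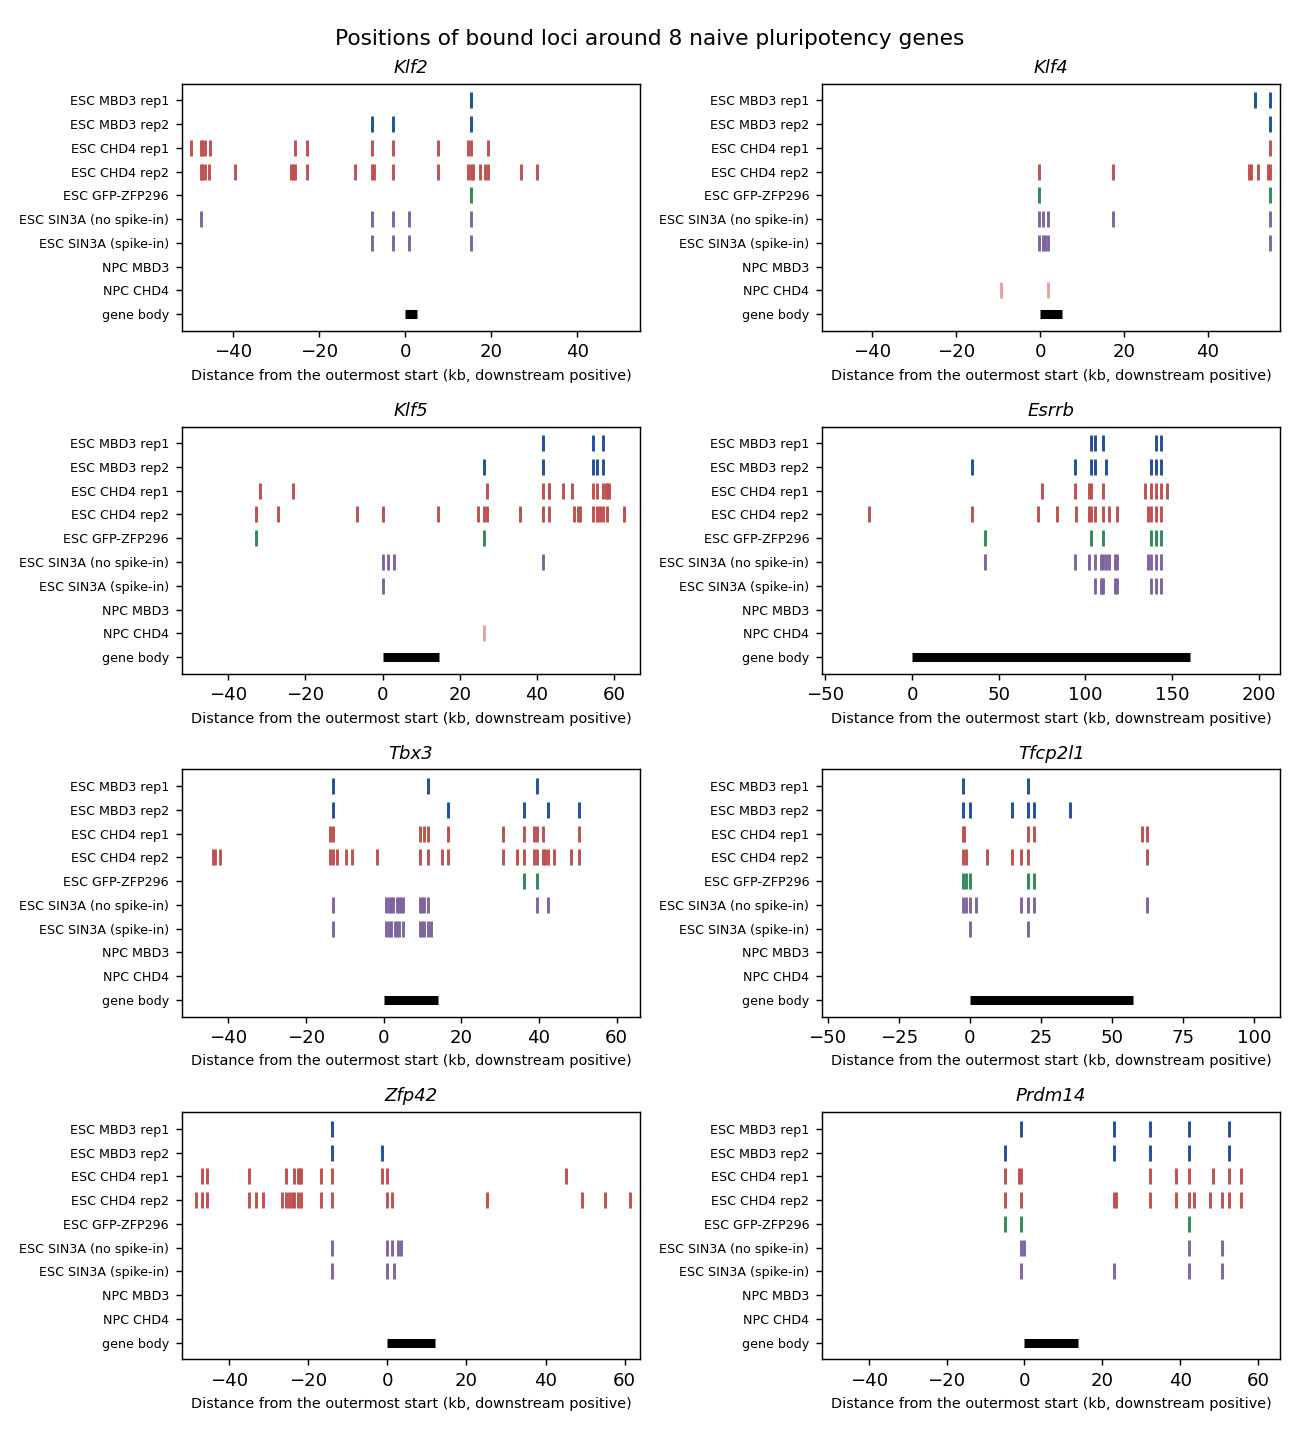
Positions of bound loci around the 8 genes with peaks, by list: the x axis is the distance from the outermost start in kb (downstream positive), each tick is a locus that holds a peak of that list, the black bar is the gene body, and MBD3 is blue, CHD4 red, GFP-ZFP296 green and SIN3A purple, with NPC lists paler. CHD4 ticks run through both flanks of Klf2 and Tbx3 and are denser upstream than downstream of Zfp42, and the NPC rows are empty except for Klf4 and Klf5.

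Set side by side by sites found in both lists, some genes had many CHD4 sites and 1 MBD3 site, and others had several of both. Klf2, Tbx3 and Zfp42 had 14, 12 and 10 CHD4 sites and 1 MBD3 site each. Klf5, Esrrb and Prdm14 had 7 CHD4 and 4 MBD3 sites each, and 3 of the 7 CHD4 sites of each carried MBD3. Of all 8232 ESC CHD4 sites of the genome 15.7% carried an MBD3 site, so most lack one everywhere. Tfcp2l1 had 4 and 2 and Klf4 1 and 1. MBD3 replicate 2, the longer list, gave 3, 6 and 3 peaks at Klf2, Tbx3 and Zfp42 and 6, 8 and 5 at Klf5, Esrrb and Prdm14. At Tbx3, with 3 and 6 MBD3 peaks, neither list alone set it apart from Klf5, with 4 and 6: the contrast arose where a site had to be found in both lists. This difference between genes was not tested.

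The counts were then set beside those of all genes. At least 1 peak of MBD3 was found at 8 of 9 genes in each ESC list, against 15.8% of all genes in replicate 1 and 33.1% in replicate 2. For CHD4 the same 8 of 9 stood beside 43.0% in replicate 1 and 67.7% in replicate 2. GFP-ZFP296 was near 7 of 9, against 21.9%. SIN3A was near 8 of 9, against 65.1% without and 59.2% with spike-in. In NPCs CHD4 was near 2 of 9, against 57.9%. MBD3 was near 0 of 9, against 15.7%. For both NPC lists, both SIN3A lists and ESC CHD4 replicate 2, 9 genes are too few to set the value apart from the background.

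**Figure D3:**
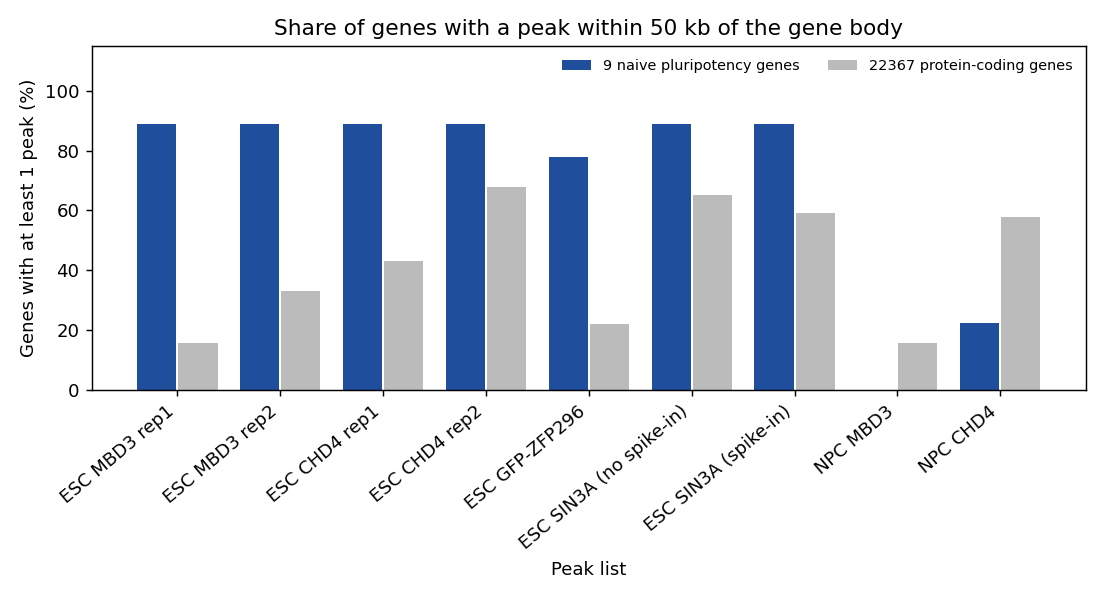
Percentage of genes with at least 1 peak within 50 kb of the gene body (y axis) in each peak list (x axis), for the 9 naive pluripotency genes (blue) and all 22367 protein-coding genes (grey). The blue bars are the taller ones in the 7 ESC lists and the shorter ones in both NPC lists, where 0 and 2 of the 9 genes had a peak.

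Requiring a site in both lists gave the same members: 8 of 9 had an MBD3 site (10.1% of all genes), a CHD4 site (36.8%) and a SIN3A site (53.5%). For SIN3A, 9 genes are again too few to set the count apart from the background. With lists cut to equal size, 5 of 9 had an MBD3 site and 5 of 9 a SIN3A site. A peak in each of the 7 ESC lists was found at 7 of 9, all but Zfp42 and Nr0b1, against 7.63% of all genes. By number, 6 of 9 genes had 5 or more CHD4 sites, against 5.09%. Tfcp2l1, with 4, fell just short of that limit, and the lowest values above it were the 7 of Klf5, Esrrb and Prdm14.

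Set against the whole genome rather than against other genes, the windows were dense in ESC peaks per base. They held 23 and 39 MBD3 peaks, 84 and 133 CHD4 peaks, 21 GFP-ZFP296 peaks and 65 and 48 SIN3A peaks in ESCs. Relative to the 0.0463% of the genome they cover, these are 21.2 and 11.2 times for MBD3, 15.5 and 9.59 times for CHD4, 14.6 times for GFP-ZFP296 and 8.68 and 9.08 times for SIN3A. This reference includes stretches without genes, and 86.9% of all SIN3A sites lay in a TSS window. In the ESC lists, the median percentile of the authors' value among the peaks in the 9 windows ran from 45.9 for SIN3A without spike-in to 70.2 for GFP-ZFP296, with 52.3 and 60.0 for MBD3. The strongest 10% of each ESC list held 6 of the 23 and 5 of the 39 MBD3 peaks, 10 of the 84 and 22 of the 133 CHD4 peaks and 4 of the 21 GFP-ZFP296 peaks. For SIN3A it held 6 of the 65 peaks without and 3 of the 48 with spike-in, both under 10%.

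For the comparison of cell types, both ESC lists were set against the NPC list of the same protein. More MBD3 peaks in both ESC lists than in NPCs were found at 8 of 9 genes, against 10.3% of all genes. MBD3 replicate 1 and the NPC list were of like length, 2344 and 2304 peaks, and held 23 and 0 peaks in the windows. For CHD4, 7 of 9 genes had more peaks in both ESC lists, against 20.6%. None of the 9 had fewer in both, against 19.9%, which 9 genes are too few to set apart. The NPC CHD4 list, with 20234 peaks, is longer than ESC replicate 1 with 11712 and shorter than ESC replicate 2 with 29974, and held 3 peaks against 84 and 133 in the windows. The pattern of 5 or more CHD4 sites in ESCs and 0 CHD4 peaks in NPCs was found at 5 of 9 genes, Klf2, Esrrb, Tbx3, Zfp42 and Prdm14, against 0.689% of all genes. With 1 list per protein in NPCs, no test between the cell types could be made: 2 values against 1 allow no exact p below 0.333.

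None of the ESC sites near the 9 genes carried the same protein in NPCs. For CHD4 this was 0 of 62 sites, which allows a share of up to 4.84% by a limit of 3 counts and of 5.78% by the exact interval, while 13.1% of all 8232 ESC CHD4 sites overlapped an NPC CHD4 peak. For MBD3 it was 0 of 18, which allows up to 16.67% and 18.5% by the same limits, beside 4.38% of all ESC MBD3 sites, so no difference from the background was detectable for MBD3. Exact intervals and these limits cover counting error alone. Taken list by list, 0 of 84 CHD4 replicate 1 peaks and 1 of 133 replicate 2 peaks near the 9 genes overlapped an NPC CHD4 peak. The 62 CHD4 sites were also less often in a TSS window than all CHD4 sites, 9.68% against 25.6%. What part this had in the CHD4 result was not tested.

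Which proteins met on the same site was described next. CHD4 lay on 16 of 18 MBD3 sites (88.9%, 95% exact interval 65.3 to 98.6), near the 84.5% of all MBD3 sites. The MBD3 sites without a CHD4 site were 1 in Esrrb and 1 at Prdm14. GFP-ZFP296 overlapped 8 of 18 (44.4%, 21.5 to 69.2), near the 42.0% of all. SIN3A overlapped 9 of 18 (50%, 26.0 to 74.0), against 26.7% of all, a value just inside the interval. With lists cut to equal size the SIN3A share was 2 of 10 MBD3 sites (20%).

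Shares of CHD4 sites that met another protein were above those of all CHD4 sites, which lay just inside the interval for MBD3 and under it for the other 2. MBD3 sites were on 16 of 62 (25.8%, 15.5 to 38.5; 15.7% of all), GFP-ZFP296 peaks on 17 of 62 (27.4%, 16.9 to 40.2; 15.4% of all) and SIN3A sites on 17 of 62 (27.4%, 16.9 to 40.2; 13.1% of all). Esrrb gave 6 of the 17 GFP-ZFP296 overlaps and 5 of the 17 SIN3A overlaps. Of the 21 GFP-ZFP296 peaks, 14 met a CHD4 site (66.7%, 43.0 to 85.4; 40.1% of all) and 10 a SIN3A site (47.6%, 25.7 to 70.2; 17.9% of all). Sites of one gene are not independent of each other, which these intervals do not cover.

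**Figure D4:**
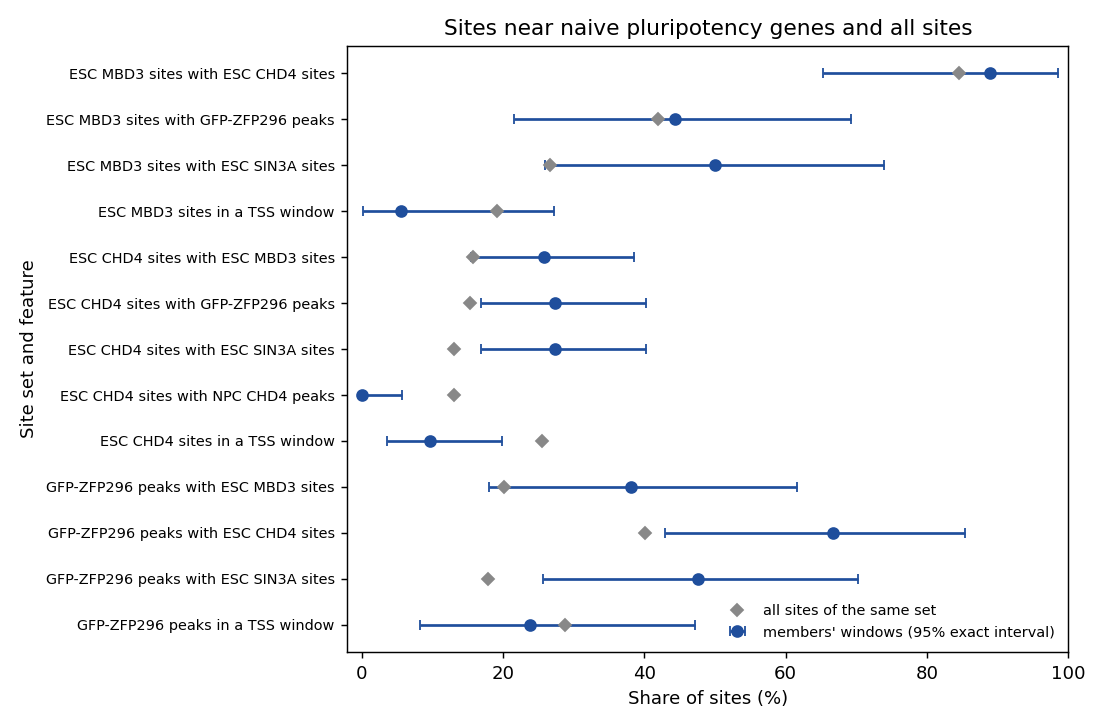
Share of sites, in percent (x axis), that overlap another protein or lie in a window around a transcription start site (TSS, 1 kb upstream to 5 kb downstream), for each set of sites (y axis). Blue points are the sites near the 9 naive pluripotency genes with 95% exact intervals and grey diamonds are all sites of the set: CHD4 sites near the 9 genes are at 0 for NPC CHD4 peaks and at 9.68% for TSS windows, both below the diamonds at 13.1% and 25.6%.

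CHD4 and MBD3 sites lay mostly away from promoters. Of the 62 CHD4 sites 6 (9.68%, 3.63 to 19.9) were in a TSS window, against 25.6% of all CHD4 sites, and of the 18 MBD3 sites 1 (5.56%, 0.141 to 27.3) was, against 19.2%. For SIN3A it was 27 of 42 sites (64.3%, 48.0 to 78.4), again below the 86.9% of all SIN3A sites. Merging all lists gave 182 loci, of which 118 were intergenic, 39 in a TSS window of one of the 9 genes, 23 elsewhere in their bodies and 2 in another gene. For 166 of the 182 the nearest start was that of the member. A locus in all 7 ESC lists was found 6 times, at Klf2, Klf4, Tfcp2l1 and Prdm14 once each and at Esrrb for the rest, which is 3.3% of these loci against 0.375% of the 62184 loci of the genome. The 62184 include loci with NPC peaks only, which cannot be in an ESC list. Of the 182 loci, 1 was of that kind, so the 2 shares do not have like denominators.

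Overlap between replicates in these windows was at or above that of the whole lists, and was partial. Of the MBD3 replicate 1 peaks 78.3% (56.3 to 92.5, n = 23) were found in replicate 2, against 64.3% of the list. For CHD4 it was 73.8% (63.1 to 82.8, n = 84) against 70.4%, and 87.5% (74.8 to 95.3, n = 48) of the SIN3A peaks with spike-in were found without it, against 77.4%. From the longer list to the shorter, 48.7% (32.4 to 65.2, n = 39) of the MBD3 replicate 2 peaks were found in replicate 1, against 20.7%, and 44.4% (35.8 to 53.2, n = 133) of the CHD4 replicate 2 peaks, against 27.7%.

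In CHD4 sites the strings bound by the network's own factors, the octamer included, were near the background. In the 18 MBD3 sites, where the octamer was above it, the ESRRB and TFCP2L1 strings stood in 2 each (11.1%, 1.38 to 34.7; 5.11% and 3.25% of all). The STAT3 and SOX2 strings stood in 1 each (5.56%, 0.141 to 27.3; 1.53% and 7.1% of all), and the PRDM14 and TBX3 strings in none. The KLF string GGGNGTGG stood in 10 of 62 CHD4 sites (16.1%, 8.02 to 27.7; 18.7% of all) and 7 of 18 MBD3 sites (38.9%, 17.3 to 64.3; 22.9% of all). The ESRRB string TCAAGGTCA stood in 3 of 62 CHD4 sites (4.84%, 1.01 to 13.5; 3.11% of all), of which 1 lay in Esrrb itself. The SOX2 string CCATTGT stood in 4 of 62 (6.45%, 1.79 to 15.7; 4.2% of all), at Tfcp2l1, Klf2 and Prdm14. The STAT3 string TTCCNGGAA stood in 2 of 62 (3.23%, 0.393 to 11.2; 1.2% of all), and the PRDM14 string GGTCTCTAA and the TBX3 string AGGTGTGA in none. The TFCP2L1 string CCAGNNNNNNCCAG was in 3 of 62 (4.84%; 3.6% of all), the AP-1 string TGACTCA in 5 (8.06%; 4.75% of all) and the telomere repeat unit TTAGGG in 3 (4.84%; 7.94% of all). All were searched on both strands, and a match is not a measured site of the factor. In the central 500 bp, a longer stretch, the octamer stood in 14.5% and the KLF string in 35.5% of the 62 CHD4 sites. No share of all CHD4 sites is given at that width, so these 2 values have no background.

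Other genes of the pluripotency network gave a scale for these values. The core factors Pou5f1, Sox2, Nanog and Sall4 had a median of 12 CHD4 sites, above the median of 7 of the 9 naive genes. All 4 had more CHD4 peaks in both ESC lists than in NPCs, but unlike 7 of the 9 naive genes, all 4 also had an NPC CHD4 peak, from 1 at Sox2 to 3 at Pou5f1. Among 18 genes of LIF, WNT and ERK signalling and other naive genes, such as Lifr, Socs3, Fgf4 and Dppa3, the median was 3.5, with an MBD3 site at 10, 5 or more CHD4 sites at 7 and more CHD4 peaks in both ESC lists at 13. The 14 other Klf genes had a median of 0, and 3 of them had an MBD3 site. Of 9 genes of the primed or formative state 2 had 5 or more CHD4 sites, Otx2 and Foxd3, both with 0 NPC CHD4 peaks. That pattern, found at 5 of the 9 naive genes, was also found at 3 of the 18 signalling and other naive genes. It was found at 1 of the 14 other Klf genes and at no core factor or neural progenitor gene. Of 9 neural progenitor genes none had an MBD3 or a CHD4 site found in both ESC lists, and 3 had fewer CHD4 peaks in both ESC lists than in NPCs, where Nes had 8 and Vim 6.

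**Figure D5:**
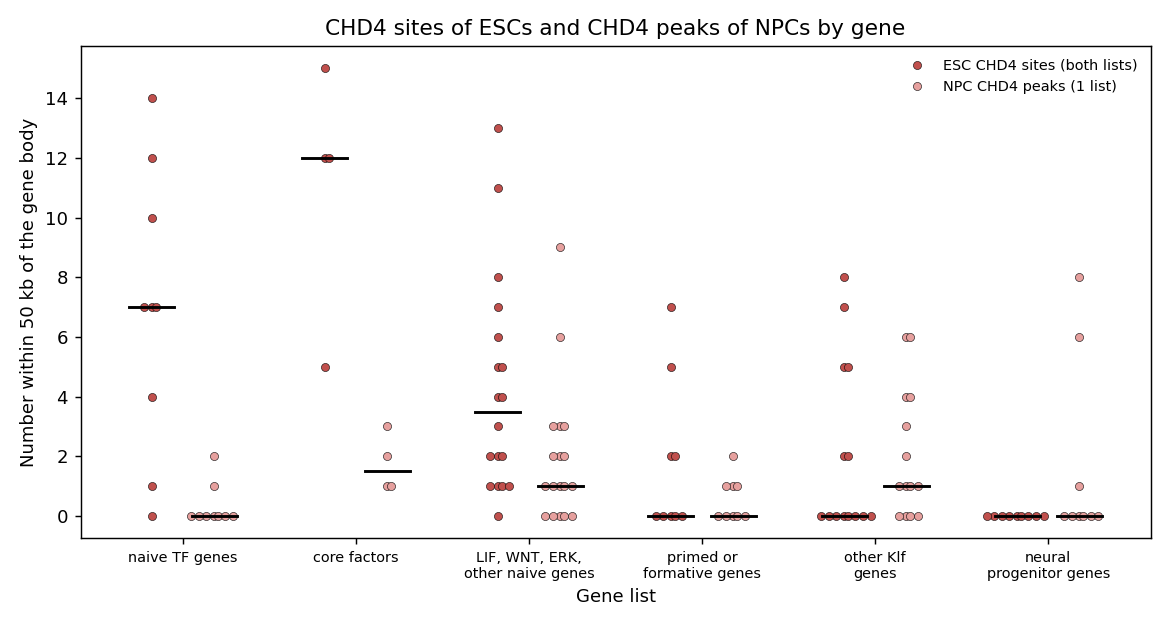
Number of CHD4 sites found in both ESC lists (dark red) and of CHD4 peaks in the single NPC list (pale red) within 50 kb of the gene body (y axis), with 1 point per gene and a bar at the median, for the 9 naive transcription factor (TF) genes and 5 other gene lists (x axis). The medians of ESC sites are 7 for the naive TF genes, 12 for the core factors, 3.5 for the other naive genes and 0 for the rest.

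Genes whose counts over the 9 lists ran most like the mean of the members were Tspyl1 (Pearson r = 0.995), then Slc30a1 and 1700034H15Rik (0.992 each) and Moap1 and D230037D09Rik (0.989 each), among 9963 genes with 10 or more peaks, whose median r was 0.53. The members of each pair had the same counts. Tspyl1 had 1 and 2 MBD3, 3 and 5 CHD4, 1 GFP-ZFP296 and 3 and 2 SIN3A peaks and 0 in NPCs. The lists' lengths are shared by all genes and enter each r. Among the members with peaks, Klf4, with r = 0.63, was the least like the mean and Tbx3, with 0.98, the most. Each member is itself part of that mean, which the other genes are not. Nr0b1, without a peak, has no r.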

How the data were processed

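Of 36 samples, 9 had peak lists used here; the other 27 were not analysed here. The authors mapped reads to mm9 with BWA, kept unique, deduplicated reads and called peaks per sample with MACS 2.0 against input of the same line. Each deposited peak carries the authors' −log10 value (p or q is not stated), used only for ranks within a list and descriptions. Peak names give a threshold of 0.001 in 8 lists and 0.0001 in SIN3A without spike-in, and in 7 lists normalization to equal reads. Read depth per peak is unknown, and binding levels in different lists were not compared.

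Genes came from GENCODE vM1 on mm9, and Tfcp2l1 was matched through an older RefSeq symbol. A site of a factor with 2 ESC lists is a peak of the shorter list overlapping the longer by at least 1 bp. Shares carry 95% exact (Clopper-Pearson) intervals. The strings were searched in the central 200 bp. The labels do not say whether replicates came from separate cultures. Named loci are those in the most lists, with an NPC peak or with the strongest GFP-ZFP296 peak of a gene. Named as most like the members were the 5 genes with the highest Pearson r. Members, gene lists and limits such as 5 sites were chosen with earlier results of these data known. Overlap and window counts were tested on simulated intervals. Tools were pyfaidx 0.9.0.4, scipy 1.17.1 and matplotlib 3.10.9 under Python 3.11.15, with numpy 2.4.6.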

Additional observations from a re-analysis of the deposited data

How the results depend on the processing

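Of 111 alternatives for 14 results, 103 left a count within 1.5 times or a share within its exact interval and 8 did not. Cutting lists to their strongest peaks, as many as the shortest list of the same protein (for SIN3A and GFP-ZFP296, of all lists), left 5 members with an MBD3 site and 5 with a SIN3A site, put CHD4 on 100% of the MBD3 sites and SIN3A on 20%. Leaving out 1 list at a time moved the share of MBD3 sites with CHD4 between 64.1%, without MBD3 replicate 1, and 100%, without CHD4 replicate 1. In the central 500 bp the octamer stood in 14.5% and the KLF string in 35.5% of CHD4 sites, with no background given at that width. Klf4 had more CHD4 peaks in both ESC lists than in NPCs with a window of 100 kb and without CHD4 replicate 1. No paired analysis was possible because NPCs had 1 list per protein and no result comes from a test.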
